A study of Mus musculus with 2 samples.

Results

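Genes of mitophagy, the removal of mitochondria by the cell's own digestion, and of the autophagy machinery that carries it out were measured in MEL cells. The group holds 10 genes that act in the clearing of organelles as red cells mature, and it was chosen by gene symbol. All 10 symbols matched 1 gene each of the 43346 genes in the files. They are the mitophagy receptor genes Bnip3l, Bnip3 and Fundc1, the machinery genes Ulk1, Becn1, Atg7, Atg5, Map1lc3b and Gabarapl2, and the cargo receptor gene Sqstm1.

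MEL is an immortal mouse erythroleukemia line whose cells resemble precursors of red blood cells. Polyadenylated RNA was read by single-end sequencing in 1 group of 2 biological replicates, with no treatment, genotype or time point that sets samples apart. Developmental stage, age and sex are given as unknown or not collected, and the labels do not say whether the replicates came from separate cultures, so the spread between them may be technical. Expected counts on genes summed to 67735380 in replicate 1 and to 79923143 in replicate 2. Levels are TPM, a relative number of transcripts that takes account of a gene's length, and means are given ± SD of the 2 replicates. All 12 erythroid marker genes examined, Gata1, Klf1 and the adult globin genes among them, stood at 10 TPM or more in both replicates, with summed levels of 1399 TPM in replicate 1 and 2190 TPM in replicate 2. Of 9 markers of other cell types, 1 reached 1 TPM, the megakaryocyte integrin gene Itga2b at 24.1 and 42.9 TPM. The T cell marker Cd3e and the hepatocyte marker Alb had 0 counts. For counting error alone, such a 0 allows at most 4.43e-06% of all counts in replicate 1 and 3.75e-06% in replicate 2.

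In selective autophagy, a receptor on the cargo binds a small ubiquitin-like protein of the ATG8 family that is anchored in a growing double membrane, and the closed vesicle then fuses with a lysosome. ULK1 kinase starts the process, the BECN1 complex makes the lipid signal PI3P, and ATG7 and ATG5 belong to the enzyme relay that attaches ATG8 proteins to the membrane. Maturing red cells lose all their mitochondria, and mice without BNIP3L, also called NIX, keep mitochondria in part of their red cells.

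The stretches below are shown because they encode the motif by which each of the 4 receptors among the members holds ATG8 proteins. This motif opens with an aromatic residue and closes with a leucine or a like residue. They were read from the GENCODE M21 transcripts on GRCm38, 5′ to 3′ on the coding strand, and each holds 36 bases, with the 4 codons of the motif's core in capitals.
Bnip3l: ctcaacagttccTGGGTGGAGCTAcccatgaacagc
Bnip3: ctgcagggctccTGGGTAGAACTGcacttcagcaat
Fundc1: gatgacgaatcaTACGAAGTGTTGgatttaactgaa
Sqstm1: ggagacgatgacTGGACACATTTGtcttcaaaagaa
The core lies at codons 35 to 38 of Bnip3l, 13 to 16 of Bnip3, 18 to 21 of Fundc1 and 340 to 343 of Sqstm1. The stretches of Bnip3l and Bnip3 each span an exon junction, while those of Fundc1 and Sqstm1 lie in 1 exon. Over their whole coding sequences, Bnip3l and Bnip3 were 60.3% identical across 673 aligned positions, gaps included.

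All 10 members were detected at 1 TPM or more in both replicates, where 46.8% of the 21474 protein-coding genes were. At 10 TPM or more in both replicates stood 8 of the 10, against 31.4% of protein-coding genes. The members were chosen with earlier results of these data known, so these shares only describe them. The median of the members' mean levels was 39.1 TPM, against 0.49 TPM over all protein-coding genes and 23.0 TPM over those detected in both replicates. Mean levels spanned 23.1-fold, from 213 TPM for Bnip3l to 9.23 TPM for Atg7. RNA was taken from bulk cells, so fewer cells with a transcript and less of it per cell cannot be told apart. Summed over the members, replicate 1 held 697 TPM and replicate 2 held 696 TPM.

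**Figure D1:**
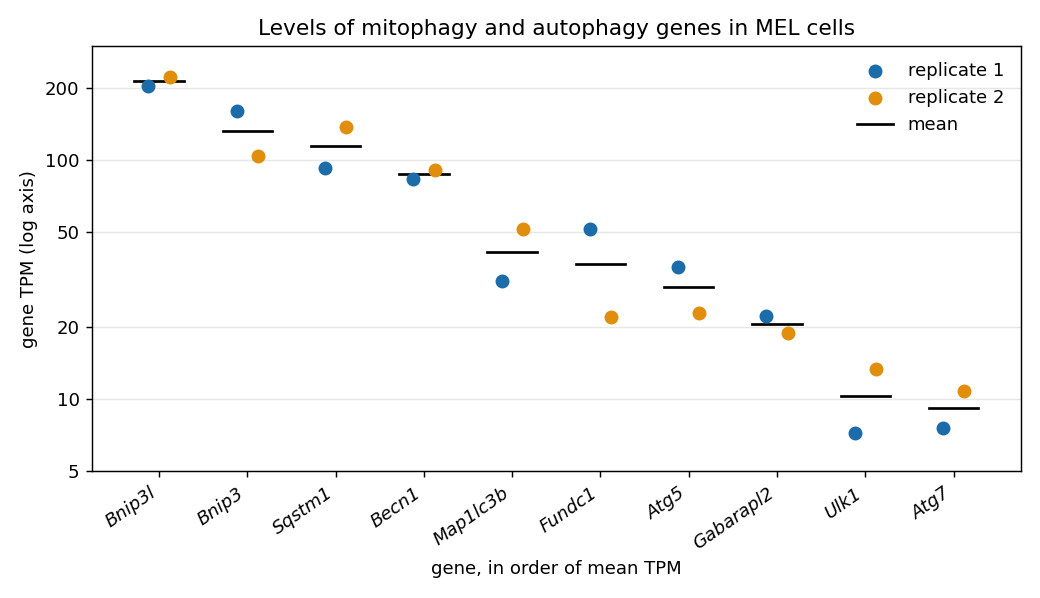
Gene TPM of each of the 10 genes on a log axis, in order of mean TPM, with a point for each replicate and a bar for the mean. The ranges of Bnip3l, from 204 to 222 TPM, and of Bnip3, from 104 to 161 TPM, did not overlap, whereas those of Map1lc3b, Fundc1 and Atg5 overlapped.

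Bnip3l (ENSMUSG00000022051.11; chromosome 14, 66985239-67008877, minus strand, mm10) encodes an outer mitochondrial membrane protein that serves as the mitophagy receptor of maturing red cells. It stood at 204 TPM in replicate 1 and 222 TPM in replicate 2, a mean of 213 ± 12.9 TPM (SD, n = 2). Its mean level ranked 622 among the 21474 protein-coding genes, the highest rank of the members. Its paralog Bnip3 (ENSMUSG00000078566.4; chromosome 7, 138890836-138909519, minus strand), a receptor gene known to respond to low oxygen, stood at 161 and 104 TPM, a mean of 133 ± 40.1 TPM. The lowest value of Bnip3l lay above the highest value of Bnip3, and the log2 ratio of Bnip3l over Bnip3 was 0.34 in replicate 1 and 1.09 in replicate 2.

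That order rested on how the reads of Bnip3l were divided among its transcripts. Of 7 listed transcripts of Bnip3l, 2 are protein-coding in GENCODE M21, and Bnip3l-201 of 3238 nt held all the reads given to them. Bnip3l-201 stood at 64.3 and 41.1 TPM, which made up 31.5% and 18.5% of the TPM of the gene. The short processed transcript Bnip3l-205 of 789 nt stood at 96.4 and 65.4 TPM, and the processed transcript Bnip3l-204 of 354 nt at 36.7 and 108.8 TPM. Thus the most abundant transcript of Bnip3l by TPM was a different one in each replicate, and neither was annotated as coding for protein. By reads the picture was another one. Bnip3l-201 took 70.5% of the expected counts of the gene in replicate 1 (95% exact Clopper-Pearson interval 69.7% to 71.3%, counting error only) and 60.6% in replicate 2 (59.8% to 61.5%).

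Bnip3l-205 is nearly contained in Bnip3l-201, and the bases that set it apart are shown here for that reason. Its first 60 bases are given from GENCODE M21, 5′ to 3′ on the minus strand, with the bases that Bnip3l-201 lacks in capitals.
Bnip3l-205: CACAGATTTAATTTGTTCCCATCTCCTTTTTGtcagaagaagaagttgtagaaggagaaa
The 32 own bases of Bnip3l-205 lie at chr14:66989810-66989841, and its other 757 bases are 1 unbroken stretch of Bnip3l-201. In the files, the length of every transcript exceeded its effective length by 44 nt, so a fragment of 45 nt was assumed. Of the 745 positions at which such a fragment fits Bnip3l-205, 31 occur in no other transcript of the gene, and for Bnip3l-204 they were 19 of 310. Reads at all other positions of these transcripts were divided by the authors' model. The deposited credibility bounds of that division were 89.3 to 98.4 TPM in replicate 1 and 60.6 to 67.4 TPM in replicate 2 for Bnip3l-205. For Bnip3l-204 they were 29.5 to 41.4 TPM in replicate 1 and 99.5 to 112 TPM in replicate 2, so the replicates differed by more than the modelled uncertainty.

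With only protein-coding transcripts counted, Bnip3l stood at 64.3 and 41.1 TPM against 160 and 94.5 TPM for Bnip3, and the mean log2 ratio of Bnip3l over Bnip3 was -1.26 ± 0.08 (SD, n = 2). Dividing all reads of each gene by the length of its transcript with the most reads gave 91.2 and 67.8 for Bnip3l against 160 and 88.8 for Bnip3 on the TPM scale, a mean log2 ratio of -0.60 ± 0.30. Under both readings Bnip3 was the higher gene in both replicates, the reverse of the order by gene TPM. Which division of the reads is right was not tested.

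**Figure D2:**
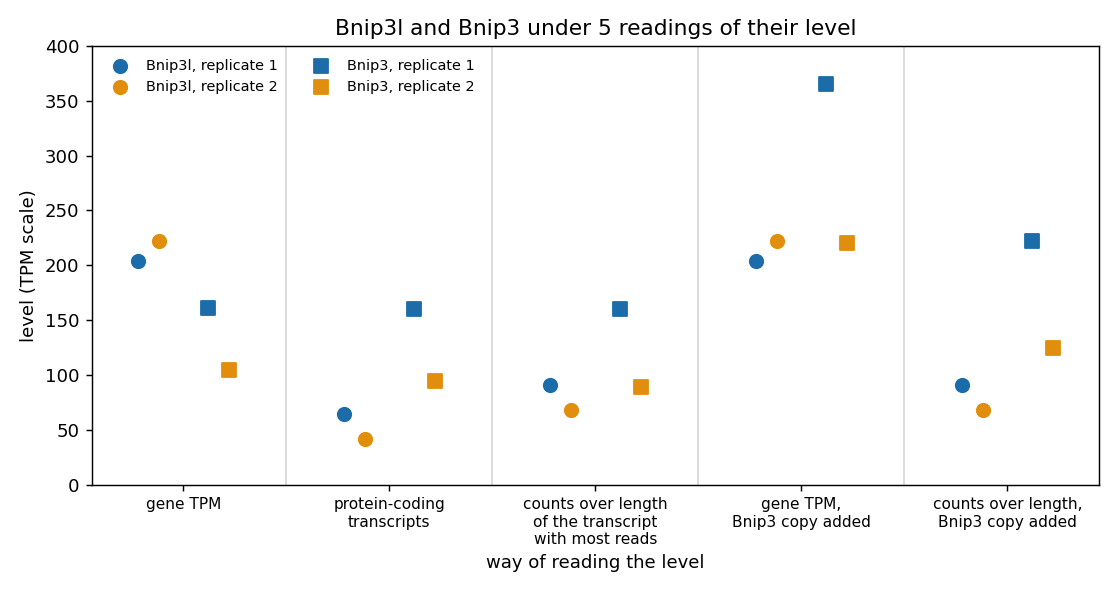
Level of Bnip3l (circles) and Bnip3 (squares) in each replicate, on the TPM scale, under 5 readings. Bnip3l lay above Bnip3 in both replicates only by gene TPM, at 204 and 222 against 161 and 104. With the TPM of the Bnip3 copy added to that of Bnip3, Bnip3l was higher in replicate 2 alone, at 222 against 221. The copy's TPM rests on its own length of 564 nt.

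Bnip3 shares its coding sequence with a further gene model that took many reads. Gm16439, a processed pseudogene (chromosome 14, 44596665-44597228, plus strand), is a copy of 564 nt that differs from Bnip3-201 at 6 positions (98.9% identical). It held 4901 expected counts in replicate 1 and 3556 in replicate 2, at 205 and 116 TPM, above the TPM of Bnip3 itself in both replicates. Its share of the reads of Bnip3 and the copy together was 27.9% in replicate 1 (95% exact Clopper-Pearson interval 27.3% to 28.6%) and 28.4% in replicate 2 (27.7% to 29.2%). Both intervals are for counting error only. The stretch with the most differences within 48 coding bases is printed from GENCODE M21, 5′ to 3′, since it shows how little tells the copies apart, with the differing bases in capitals.
Bnip3: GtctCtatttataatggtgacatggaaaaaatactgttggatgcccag
Gm16439: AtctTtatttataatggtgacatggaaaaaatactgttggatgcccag
Counted from the first base of the Bnip3 coding sequence, the differences are G88A and C92T. Of the 520 positions for a fragment of 45 nt in Gm16439, 190 match no transcript of Bnip3, and 330 of the 1712 positions of Bnip3-201 also occur in the copy. The posterior SD of the count, the authors' measure of uncertain assignment, was 0.35 and 0.54 times the counting error for Bnip3 and 0.56 and 0.86 times for the copy. Adding the copy's TPM to that of Bnip3 gave 366 TPM in replicate 1 and 221 TPM in replicate 2, and a mean log2 ratio of Bnip3l over Bnip3 of -0.41 ± 0.60, with opposite signs in the replicates. Whether the copy is transcribed was not tested. Bnip3l-ps, the only copy of Bnip3l found, was low at 0.81 and 0.32 TPM.

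Fundc1 (ENSMUSG00000025040.9; chromosome X, 17556564-17572325, minus strand), a receptor gene of the outer mitochondrial membrane, stood at 51.4 and 22.2 TPM, a mean of 36.8 ± 20.6 TPM. In fold, its replicates lay farther apart than those of any other member. Bnip3 exceeded Fundc1 3.83-fold (log2 1.94 ± 0.41). This ratio was past a limit of 1.61 on the log2 scale, or 3.06-fold. The limit is the size of log2 TPM ratio between replicates that 95% of 12325 genes with a mean of 1 TPM or more stay within. Pairs past that limit with 1 sign in both replicates are said below to stand apart, and 10 of the 22 pairs compared did. Bnip3l over Fundc1 also stood apart by gene TPM (log2 2.65 ± 0.94), but not with protein-coding transcripts alone (0.61) or with the length of the transcript with the most reads (1.31). Fundc1 over its paralog Fundc2, at 102 and 30.7 TPM, had a log2 ratio of -0.73 ± 0.37 and did not stand apart. The sign of its mean turned with protein-coding transcripts alone (0.29) and with the length of the transcript with the most reads (0.024). Fundc2 held 4476 and 3715 expected counts, and scaled by library size their log2 ratio was 0.63, inside 2-fold.

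All 7 genes on the list of mitophagy receptors reached 10 TPM in both replicates, with a median of 133 TPM. The highest was Phb2, an inner membrane receptor gene, at 543 ± 108 TPM, and the lowest was Bcl2l13, whose product binds ATG8 proteins, at 29.0 ± 3.99 TPM. Bnip3l over Fkbp8, another outer membrane receptor gene at 130 and 261 TPM, changed sign between replicates by gene TPM. With protein-coding transcripts alone the pair stood apart with Fkbp8 the higher gene (log2 -1.56), and with the length of the transcript with the most reads it did not stand apart (-1.09). A further route to mitophagy opens with the kinase PINK1, which marks damaged mitochondria. The 9 genes of this route counted here all reached 1 TPM in both replicates, led by the outer membrane channel gene Vdac1 at 323 ± 40.3 TPM. Pink1 stood at 8.66 and 16.7 TPM, and Bnip3l exceeded it 17.6-fold (log2 4.13 ± 0.58). That pair stood apart also with protein-coding transcripts alone (2.08).

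**Figure D3:**
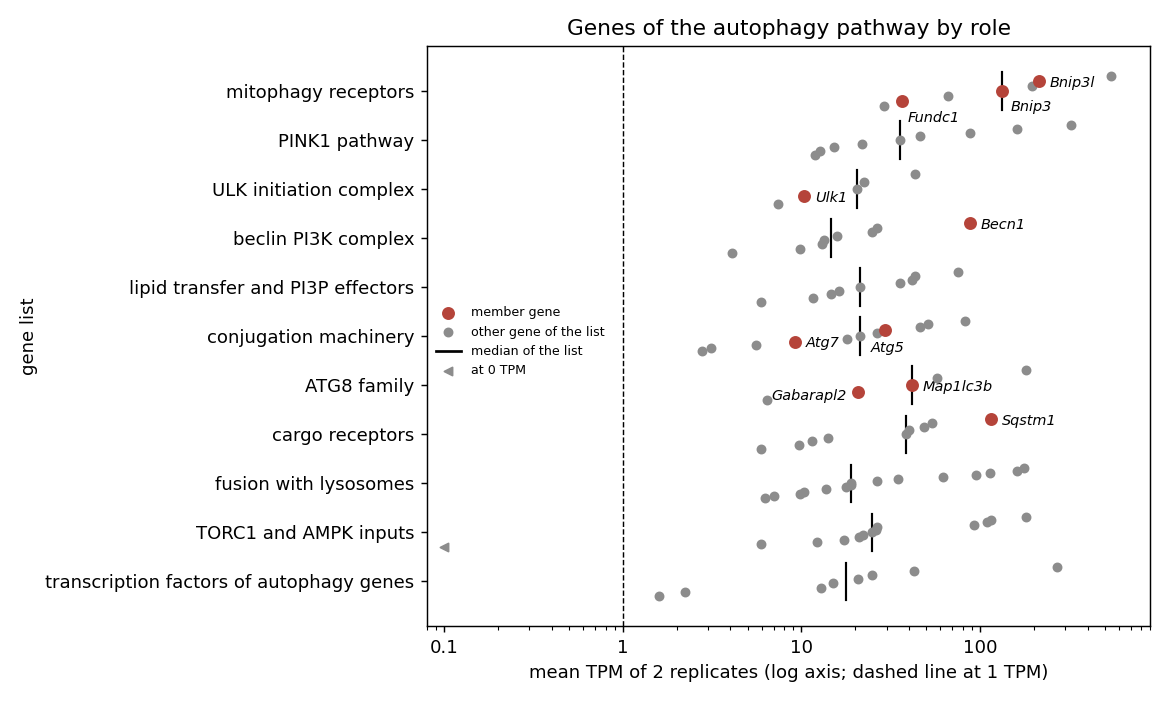
Mean TPM of the 2 replicates on a log axis for each gene of 11 lists by role, with the 10 members named in red, other genes in grey and the median of each list as a black bar. Prkaa2, at 0 TPM, is drawn at the left edge, and every other gene plotted has a mean above 1 TPM.

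At the start of the pathway, Ulk1 (ENSMUSG00000029512.7; chromosome 5, 110784488-110810097, minus strand), the kinase gene of autophagy initiation, was low for the group. It stood at 7.25 and 13.4 TPM, a mean of 10.3 ± 4.36 TPM. Its paralog Ulk2 was close by, at 7.15 and 7.64 TPM, with a log2 ratio of Ulk1 over Ulk2 of 0.41 ± 0.55 that did not stand apart. The ratio of Ulk1 over the adaptor gene Atg13, at 20.2 and 20.9 TPM, was -1.05 ± 0.59. That of Ulk1 over the scaffold gene Rb1cc1, at 34.8 and 10.3 TPM, changed sign between replicates. All 5 genes of the complex were detected, with Atg101 the highest at 43.4 ± 19.8 TPM. Ulk1 and Atg5 have 1 listed transcript each, so their TPM could lie on no other.

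Becn1 (ENSMUSG00000035086.9; chromosome 11, 101285952-101302286, minus strand) encodes the scaffold of the lipid kinase complex. It stood at 83.4 and 91.25 TPM, a mean of 87.3 ± 5.53 TPM, the highest of the 8 genes of its complex, whose median was 14.6 TPM. Becn1 exceeded its kinase partner Pik3c3 3.57-fold (log2 1.83 ± 0.41), the autophagy subunit Atg14 by more (log2 4.39 ± 0.10) and the endosomal subunit Uvrag 6.50-fold (2.70 ± 0.10), and all 3 pairs stood apart. Without replicate 2, Becn1 over Pik3c3 was 1.55, inside the limit.

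Most reads of Becn1 lay on transcripts that GENCODE M21 does not class as coding. Becn1-201 of 2123 nt, classed as a target of nonsense-mediated decay, stood at 46.4 and 28.5 TPM and took 57.8% of the counts in replicate 1 (56.7% to 58.9%) and 43.3% in replicate 2 (42.2% to 44.4%). Becn1-217, the protein-coding transcript with the most reads, stood at 16.3 and 19.9 TPM. Its annotated coding sequence has 277 codons, and whether these encode the whole protein was not examined. The retained-intron transcript Becn1-211, of 487 nt, stood at 2.43 TPM in replicate 1 and 18.4 TPM in replicate 2. All 5 protein-coding transcripts held 22.8% and 23.3% of the TPM of Becn1, or 19.97% and 23.1% of its counts. Of the 2079 positions of Becn1-201, 82 occur in no other listed transcript of the gene. With protein-coding transcripts alone Becn1 still stood apart from Atg14 (log2 2.28), but neither from Pik3c3 (0.70) nor from Uvrag (0.59). The files were made with an older release, GENCODE M4, which may class these transcripts otherwise.

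Bnip3l and Becn1 were the members with under 50% of their TPM on protein-coding transcripts in both replicates. That was 2 of 10 members, against 7.55% of the 10045 protein-coding genes detected in both replicates. The median share was 94.9% over the members and 97.2% over those genes. Among the rest, the mean share was lowest for Gabarapl2, at 71.0% and 76.4%, with most other reads on the retained-intron transcript Gabarapl2-203. For Sqstm1 it was 85.4% and 75.0%. In 9 of the 10 members the transcript with the highest TPM was the same in both replicates, Bnip3l being the exception. For Ulk1 and Atg5, with 1 listed transcript each, it could not have differed.

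**Figure D4:**
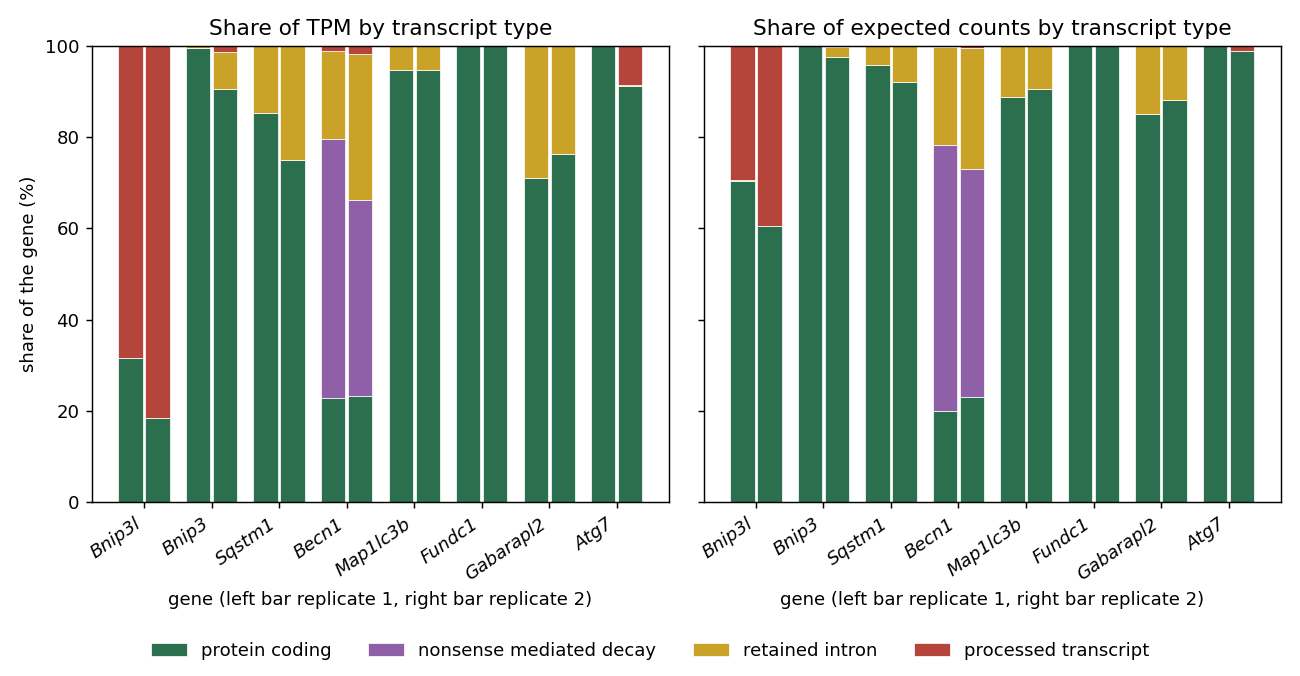
Share of TPM (left) and of expected counts (right), in percent, by transcript type for the 8 members with more than 1 listed transcript, with replicate 1 as the left and replicate 2 as the right bar of each gene. For Bnip3l the protein-coding share was 31.5% and 18.5% of TPM but 70.5% and 60.6% of counts, and for Becn1 it lay between 19.97% and 23.3% throughout.

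In the conjugation relay, Atg7 (ENSMUSG00000030314.12; chromosome 6, 114643097-114860614, plus strand), which encodes the activating enzyme, had the lowest mean of the members. It stood at 7.58 and 10.9 TPM, a mean of 9.23 ± 2.33 TPM. The transfer enzyme gene Atg3, which takes ATG8 proteins over from ATG7, stood at 62.6 and 30.2 TPM, and the log2 ratio of Atg7 over Atg3 was -2.25 ± 1.11. It stood apart, though not without replicate 1 (-1.46). Atg10, which encodes the enzyme that serves ATG12, was at 3.62 and 2.62 TPM, and Atg7 over Atg10 had a log2 ratio of 1.53 ± 0.68. By gene TPM it did not pass the limit with both replicates, and it did without replicate 1 (2.01). With both replicates it passed the limits of 2 other readings, by posterior mean TPM (1.64 against a limit of 1.55) and with protein-coding transcripts alone (1.46 against 1.36).

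Atg5 (ENSMUSG00000038160.6; chromosome 10, 44268358-44364291, plus strand), whose product is joined to ATG12, stood at 35.9 and 22.9 TPM, a mean of 29.4 ± 9.19 TPM. Its partners lay close to it, with a log2 ratio of Atg5 over Atg12 of 0.43 ± 0.26 and of Atg5 over Atg16l1 of 0.12 ± 0.40, the last with opposite signs in the replicates. All 11 genes of the relay were detected. The ATG8 protease gene Atg4b led them at 82.6 ± 11.1 TPM, and its relative Atg4c was lowest at 2.79 ± 1.51 TPM.

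Among the ATG8 family, the members Map1lc3b and Gabarapl2 were not the most abundant genes. Map1lc3b (ENSMUSG00000031812.12; chromosome 8, 121590361-121598760, plus strand) encodes LC3B, the usual marker of autophagosomes, and stood at 31.3 and 51.7 TPM, a mean of 41.5 ± 14.4 TPM. It exceeded its paralog Map1lc3a, at 3.46 and 9.38 TPM, 6.94-fold (log2 2.79 ± 0.49), and this pair stood apart. Gabarapl2 (ENSMUSG00000031950.7; chromosome 8, 111940703-111953612, plus strand), also known as GATE-16, stood at 22.4 and 18.95 TPM, a mean of 20.7 ± 2.43 TPM. Gabarap stood at 180 and 184 TPM, 8.80-fold above Gabarapl2 (log2 of Gabarapl2 over Gabarap -3.14 ± 0.19), and this pair stood apart. Gabarapl1 was at 49.6 and 64.8 TPM, and the log2 ratio of Gabarapl2 over Gabarapl1 of -1.46 ± 0.44 did not stand apart. It did so without replicate 1 (-1.77), with a pseudocount of 1 (-1.42 against a limit of 1.39), with protein-coding transcripts alone (-1.89) and with the length of the transcript with the most reads (-1.69). Map1lc3b over Gabarapl2 had a log2 ratio of 0.96 ± 0.68, inside the limit.

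Map1lc3b too has a near-identical copy with reads. Gm6055, a processed pseudogene of 378 nt (chromosome 14, 48079375-48079752, minus strand), differs from Map1lc3b-201 at 1 position, and both stretches are printed to show it.
Map1lc3b: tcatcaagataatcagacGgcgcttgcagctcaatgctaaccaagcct
Gm6055: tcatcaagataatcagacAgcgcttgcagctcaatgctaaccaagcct
The difference is G206A, counted from the first base of the Map1lc3b coding sequence. The copy stood at 34.4 and 35.2 TPM on 529 and 693 expected counts, while Map1lc3b held 2774 and 6840 counts. The copy's share of the reads of both was 16.0% in replicate 1 (14.8% to 17.3%) and 9.20% in replicate 2 (8.56% to 9.87%), with intervals for counting error only. Of 334 positions in the copy, 45 match no transcript of Map1lc3b, and the posterior SD of the copy's count was 1.15 and 1.59 times the counting error. Map1lc3b also lies inside the gene model Gm20388 on the same strand, which held 8.81 and 13.3 TPM. Where the measured copies of Gabarapl2 were concerned, Gm5829 had 0 counts in both replicates and Gm6058 had 0 and 1.

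Sqstm1 (ENSMUSG00000015837.11; chromosome 11, 50199366-50210827, minus strand) encodes the ubiquitin-binding cargo receptor sequestosome 1. It stood at 92.5 and 138 TPM, a mean of 115 ± 31.9 TPM, the highest of the 9 cargo receptor genes, all of which were detected. It exceeded Optn, the optineurin gene at 15.6 and 12.8 TPM, 7.96-fold (log2 2.99 ± 0.60), and this pair stood apart. Over its relative Nbr1, at 39.5 and 40.3 TPM, the log2 ratio was 1.497 ± 0.38, inside the limit by gene TPM. It passed without replicate 1 (1.77), with a pseudocount of 1 (1.48 against a limit of 1.39), with protein-coding transcripts alone (1.86) and with the length of the transcript with the most reads (1.95). Mrnip, on the opposite strand over the end of Sqstm1, held 5.73 and 6.43 TPM, and Cntd1, opposite Becn1, held 0.77 and 0.62 TPM. How strand was used in counting is not stated, so reads cannot be told apart where such neighbours overlap. Mrnip reaches only to position 50200115. Sqstm1-202, with 86.1% and 82.9% of the counts of Sqstm1, lies beyond it, from position 50200152.

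In the order of mean TPM, 5 of the 9 pairs of neighbours had replicate ranges that did not overlap. Bnip3l lay above Bnip3, Sqstm1 lay above Becn1, Becn1 lay above Map1lc3b, Atg5 lay above Gabarapl2 and Gabarapl2 lay above Ulk1. Of these, Sqstm1 and Becn1 were close, with 92.5 TPM for Sqstm1 in replicate 1 and 91.25 TPM for Becn1 in replicate 2. The deposited credibility bounds of those 2 values overlapped, at 87.0 to 95.4 TPM and 86.9 to 93.9 TPM. With 2 values against 2, ranges that do not overlap are no test of the order. Bnip3 and Sqstm1, Map1lc3b and Fundc1, Fundc1 and Atg5, and Ulk1 and Atg7 could not be ordered beyond their spread. With protein-coding transcripts alone, 3 of the 10 members kept their place in this order, and Becn1, at 20.2 ± 1.60 TPM, was then seventh. Bnip3l, at 52.7 ± 16.4 TPM, then fell below Bnip3 and also below Sqstm1, at 91.1 ± 17.2 TPM. With the length of the transcript with the most reads, 7 members kept their place. The mean of Bnip3l (79.5 ± 16.5) again lay below that of Sqstm1 (99.3 ± 22.1), though in replicate 1 Bnip3l was higher, at 91.2 against 83.6.

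How far the members differed between the replicates was read from rounded expected counts scaled by library size. Of 15251 genes with 20 or more counts in all, 20.4% were past 2-fold, 12.4% with more in replicate 1 and 8.01% with more in replicate 2. Of the 10 members 1 was past it, which is no more than this background. It was Fundc1, with 4421 counts in replicate 1 and 2304 in replicate 2, 2.46-fold higher in replicate 1 (95% exact Clopper-Pearson interval 2.34 to 2.59, counting error only). Bnip3, at 12650 and 8947 counts, was 1.81-fold higher in replicate 1 (1.77 to 1.86). Map1lc3b, at 2774 and 6840 counts, had a ratio of replicate 1 over replicate 2 of 0.52 (0.50 to 0.54), or 1.92-fold more in replicate 2. Ulk1, at 1726 and 4079 counts, had a ratio of 0.54 (0.51 to 0.57). The median absolute log2 ratio was 0.55 over the members and 0.59 over all tested genes. There is 1 library per replicate, so no p-value is given.

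The direction of these differences ran with GC content. Over all tested genes, the median log2 ratio of replicate 1 over replicate 2 was 1.10 in the lowest and -0.83 in the highest of 10 equal bins by GC content. Over all tested genes 49.2% had more scaled counts in replicate 1. The 6 members with more counts in replicate 1 (Fundc1, Bnip3, Atg5, Bnip3l, Becn1 and Gabarapl2) had GC contents from 38.8% to 49.1%. The 4 with more in replicate 2 (Atg7, Sqstm1, Ulk1 and Map1lc3b) had GC contents from 52.6% to 58.0%. Fundc1, at 38.8% GC and a log2 ratio of 1.30, lay 0.20 above the median of its bin, and once the GC trend was removed no member was past 2-fold, where 8.46% of 15161 genes were. Map1lc3b, at 52.6% GC, lay farthest from the median of its bin, by -0.60. Beyond this removal of the trend, the part of GC content in these differences was not tested.

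**Figure D5:**
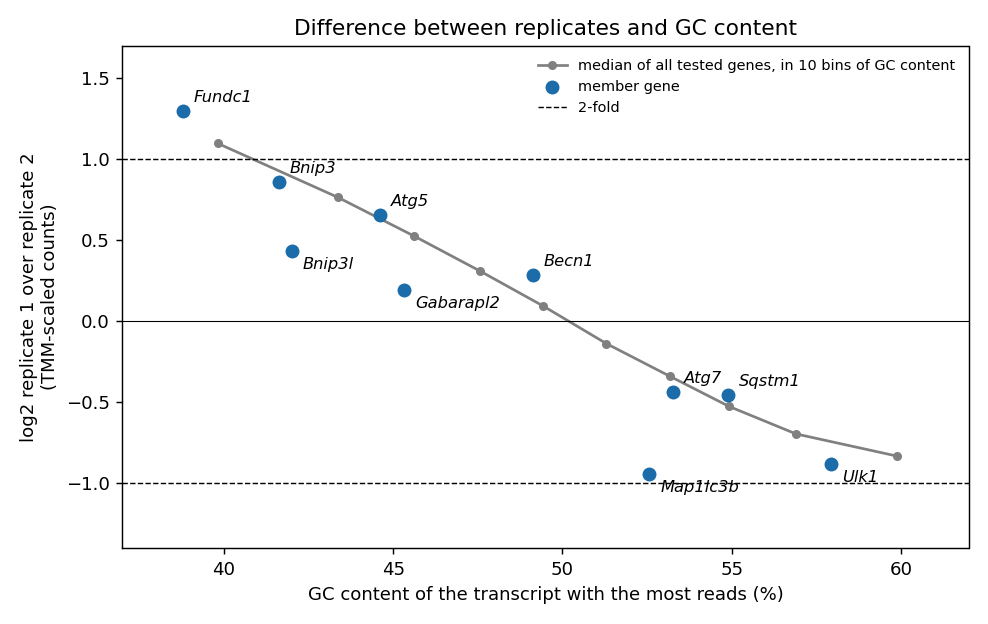
Log2 ratio of replicate 1 over replicate 2 in scaled counts against the GC content of the transcript with the most reads, for the 10 members (blue) and as the median of all tested genes in 10 bins of GC content (grey line). The 6 members of lower GC content lie above 0 and the 4 of higher GC content below it, and Map1lc3b lies farthest from the grey line.

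By TPM, 4 members were higher in replicate 1, where by scaled counts 6 were. Bnip3l and Becn1 were the genes that changed sides. Bnip3l had a ratio of replicate 1 over replicate 2 of 1.35 in scaled counts (1.32 to 1.38) but the lower TPM in replicate 1, since its effective length in the files was 1427 nt in replicate 1 and 974 nt in replicate 2. Becn1 had a ratio of 1.22 (1.18 to 1.26) and effective lengths of 1998 and 1502 nt. Both intervals are 95% exact Clopper-Pearson intervals for counting error only. Effective length is an average over a gene's transcripts weighted by their abundance, so the short transcripts named above enter it.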

How the data were processed

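Files of 2 libraries of polyadenylated RNA were used. Per the file headers and the text that accompanies each sample, reads were placed on mm10 and quantified with GENCODE M4. Which aligner and quantifier were used, and how strand was treated, is not given in the sources used here. The deposited expected counts are reads divided among genes and transcripts by a model. The authors divided reads by effective length for TPM, with a fixed sum per library, and for FPKM, per fragment total. The deposited score columns give credibility bounds for TPM and a posterior SD for each count. Symbols, transcript types and sequences came from GENCODE M21 by identifier without version, and 65 of 66 member transcripts had the same length there. The 97 spike-ins and 26248 features with numeric identifiers were left out. TPM was not rescaled after this, and the numeric features held 2.93% of TPM in replicate 1 and 6.24% in replicate 2.

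The members, lists and pairs were chosen with earlier results of these data known. Some items are not reported here and were left out of the list counts. Genes named are the members, their pairs and, of each list, up to the 2 highest and 2 lowest by mean TPM. Some, not all, of the measured copies (at least 90% identity over 100 nt, blastn 2.17.0) and overlapping genes are named too. Other copies had no values, such as Gm6532, 98.6% identical to the Bnip3 coding sequence over 559 nt. Where reads of such copies would have been placed is not known. Detection was 1 TPM in both replicates. Pairs were compared as log2 ratios with a pseudocount of 0.1. Replicates were compared by expected counts rounded to whole numbers and scaled by TMM in edgeR 4.0.16, with 0.5 added for log2 ratios. Of these steps, only the scaling and the 2-fold call were tested on simulated counts, which held counting error alone and no GC trend. A lowess curve (fraction 0.3) served as the GC trend. Alternatives were FPKM, posterior mean TPM, other minimums, pseudocounts and library sizes (DESeq2 1.42.0) and each replicate alone. Protein-coding transcripts alone, other lengths, added copies and removal of the GC trend were added after the data were examined. Python 3.11.15, pandas 2.3.3, scipy 1.17.1, statsmodels 0.14.6 and biopython 1.88 were used.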

Additional observations from a re-analysis of the deposited data

How the results depend on the processing

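The order of Bnip3l and Bnip3 depended on the reading. The mean log2 ratio of Bnip3l over Bnip3 was 0.72 by gene TPM, 0.72 by FPKM and 0.71 by posterior mean TPM. By gene TPM it was 0.34 to 1.09 with 1 replicate left out. It was -1.26 with protein-coding transcripts alone and -0.60 with the length of the transcript with the most reads. With the copy's TPM, which rests on the copy's own shorter length, added to that of Bnip3 it was -0.41. With the copy's reads added to those of Bnip3, over the length of the transcript with the most reads, it was -1.08. The fold between the highest and the lowest member was 23.1 and ranged from 20.5 to 28.2 with 1 replicate left out. It was 14.6 with protein-coding transcripts alone and 16.4 with the length of the transcript with the most reads. The number of members past 2-fold between replicates was 1. It was 3 with total expected counts as library sizes, which moved the median log2 ratio of all tested genes by -0.12 and where 21.4% of them were past 2-fold. It was 0 with the GC trend removed, where 8.46% of genes were past it, and 5 past a fold of 1.5, where 50.3% were. The count of tested genes past 2-fold was 3114, 3262 with total expected counts as library sizes, 8182 with no filter on low counts, 1902 with a summed count of at least 200 and 1282 with the GC trend removed. Pairs standing apart numbered 10, and 10 to 12 under the alternatives. With protein-coding transcripts alone 7 of them were kept, 4 pairs were gained and the mean of 3 pairs turned its sign. With the length of the transcript with the most reads 9 were kept, 2 were gained and 4 turned. Of the 89 other pathway genes, 85 to 88 were detected under each TPM minimum tried and with each replicate left out. The median share of TPM on protein-coding transcripts was 94.9%, from 90.8% to 97.1% with 1 replicate left out, and 96.4% of expected counts. No paired analysis was possible because there is 1 group. Depth did not limit the members, whose counts ran from 1105 to 13481, and 2 replicates of 1 group allow no test between conditions.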

Other observations

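Around the members, 88 of the 89 other genes on 11 lists of the pathway were detected in both replicates (98.9%), where 46.8% of all protein-coding genes were. The median level of these 89 genes was 22.1 TPM. The lists were chosen with earlier results of these data known, so their share is a description and no test against that background. Genes of the step at which the vesicle fuses with lysosomes were led by Rab7, a small GTPase gene of late endosomes, at 175 ± 16.4 TPM and the lysosomal membrane gene Lamp1 at 160 ± 18.2 TPM (SD, n = 2), and all 15 were detected. The lipid transfer and PI3P effector genes were led by Vmp1 at 75.0 ± 6.05 TPM, with the PI3P-binding gene Wipi1 lowest at 5.92 ± 0.37 TPM. Between replicates, 10 of 88 tested genes of these lists were past 2-fold, where 20.4% of all tested genes were.

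Among inputs to autophagy, the genes of the energy sensor AMPK and of the growth kinase complex TORC1 included 1 gene with no reads. Prkaa2, which encodes a catalytic subunit of AMPK, had 0 counts in both replicates, which allows up to 0.0082 TPM in replicate 1 and 0.0064 TPM in replicate 2 for counting error. Rheb, the GTPase gene that switches TORC1 on, stood at 274 TPM in replicate 1 and 85.9 TPM in replicate 2. It held 13542 and 8923 expected counts, and scaled by library size their log2 ratio was 0.96, inside 2-fold. Of 8 genes for transcription factors known to act on autophagy genes, the erythroid factor gene Gata1 was highest at 163 and 376 TPM, and Mitf was lowest at 1.94 and 1.25 TPM.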
